A study of Mus musculus with 18 samples.

Results

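The genes described here encode the machinery that copies DNA in mouse cells. They comprise the origin recognition complex, the licensing factors, the MCM2-7 helicase and the proteins that activate it, the replicative polymerases with their clamp and clamp loader, and the proteins that protect single-stranded DNA and stabilise forks. Okazaki fragment maturation, deoxynucleotide supply and replication-coupled chromatin assembly complete the set. Of 52 genes in 10 subgroups, 51 had a probe set on the array that maps to that gene alone, out of 22180 genes with such a probe set; Rfc4, a clamp loader subunit, had none and is not reported. Where a gene had more than 1 probe set, the one with the highest mean was taken. All 51 were among the 16337 genes tested.

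Expression was measured on 18 arrays, 3 in each of 6 groups, in acute myeloid leukemia (AML) cells and in normal LSK cells. The AML cells were GFP+ MLL-AF9 leukemia cells sorted from leukemic mice, and MLL-AF9 is a fusion oncogene that drives myeloid leukemia. The LSK cells were normal Lin-ckit+sca1+ cells of the bone marrow, a fraction enriched for stem and multipotent progenitor cells. Both came from 4F transgenic animals, in which doxycycline (Dox) switches on Oct4, Sox2, Klf4 and c-Myc (OSKM), so the Control and Compound groups carried the transgenes too. The groups were AML Dox (Dox for 24 h in vitro), AML Compound (24 h in vitro with VPA, CHIR, 616452 and TCP, a chemical reprogramming cocktail), AML Control, LSK Dox, LSK Compound and LSK Control. No group received Dox without the transgenes, so the effects of Dox and of the factors cannot be told apart. The sources used here record neither how long Control cells were cultured nor the age and strain of the mice. If Control cells were not cultured for 24 h, culture and treatment cannot be told apart in comparisons with Control. Arrays of a group are labelled as biological repeats, but it is not recorded how many mice or cultures stand behind them.

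DNA replication starts when the origin recognition complex, with Cdc6 and Cdt1, loads the MCM2-7 helicase onto origins in G1. The kinase Cdc7-Dbf4 and the factors Cdc45 and GINS then turn the loaded helicase into a moving one, and polymerases alpha, delta and epsilon copy the unwound strands. Many of these genes are transcribed at the G1/S transition under the control of E2F transcription factors. In bone marrow, progenitors and leukemic blasts cycle, while terminally differentiated and quiescent cells express these genes weakly.

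One array stood apart. LSK Compound replicate 1 correlated with the other arrays at r = 0.638 to 0.672, whereas arrays correlated at 0.979 to 0.989 within the groups when it was set aside. Its values over all probe sets were compressed, with a median of 3.235 and a standard deviation of 1.45. LSK Compound replicates 2 and 3 had medians of 2.71 and standard deviations of 2.05 and 2.04. Replicate 1 is left out of every value below, and LSK Compound rests on 2 arrays. Those 2 arrays also differed from the other LSK arrays in sex-linked transcripts. Xist was at 7.32 and 7.35 log2 units there, against 9.28 to 9.77 in LSK Dox and LSK Control, and the Y-linked Uty was at 5.03 and 5.13, against 1.58 to 2.02. On the 9 AML arrays Xist was at 2.34 to 3.01 and Uty at 1.84 to 2.53, so the cell types differed in Xist as well. The part of these differences in the LSK Compound results and in comparisons between the cell types was not tested. Klf4, one of the induced factors, was 5.87 log2 units higher in AML Dox than in AML Control and 4.38 higher in LSK Dox than in LSK Control. Sox2 was 1.31 and Pou5f1, which encodes Oct4, 0.67 higher in AML Dox, while Myc was 4.10 lower. In LSK Dox the adjusted p of Sox2 and Pou5f1 was 0.394 and 0.592, and Myc was 0.60 lower than in LSK Control. Of the markers of the sorted cells, Ly6a, the gene of Sca1, has no probe set of its own, and Kit was 1.49 lower in AML Control than in LSK Control. The mean of 8 genes typical of MLL-AF9 leukemia lay at 6.29 to 6.38 in AML Control and at 5.06 to 5.16 in LSK Control. Of these 8 genes, 6 were called higher in AML Control and 1 lower, at -2.48. Among all genes tested, 15.4% were called higher and 14.2% lower.

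In AML cells, almost the whole set was lower after 24 h of Dox than in Control. By limma, with p-values adjusted by Benjamini-Hochberg across the 16337 genes and a threshold of 0.05, 48 of the 51 genes (94.1%) fell in AML Dox relative to AML Control and 1 rose. Among all genes tested, 25.6% were called lower and 23% higher. The median change of the set was -2.13 on the log2 scale, beside -0.01 for all genes tested. The change was below -1 for 43 genes, below -2 for 28 and below -3 for 11. The exceptions were Orc4, which rose, and Gmnn and Pola1, which were not called. The 3 AML Dox arrays lay wholly below the 3 AML Control arrays for 49 genes, as they did for 29.4% of all genes tested. In bulk RNA, fewer cells in cycle and less RNA of these genes per cell cannot be told apart. Markers moved as well. Of 9 progenitor genes tested 4 fell and 4 rose, with a median change of 0.02. Cd34 was 5.23 and Kit 2.78 lower in AML Dox, while rises were at most 0.61, among them Meis1. The mean of the 10 with a probe set was 4.05 to 4.06 in AML Dox and 4.81 to 4.86 in AML Control. The part of this list in the result was not tested. The means of 7 T and NK cell genes (2.17 to 2.27 in AML Dox, 2.12 to 2.26 in AML Control) and of 4 erythroid genes (2.77 to 2.93 in AML Dox, 2.83 to 2.98 in AML Control) stayed near the lower end of the arrays' range. Other lists moved. All 8 MLL-AF9 leukemia genes rose, with a mean of 7.72 to 7.81 in AML Dox and 6.29 to 6.38 in AML Control. Of 3 mast cell and basophil genes tested 2 fell, and the mean of the 6 with a probe set was 2.07 to 2.15 in AML Dox and 2.46 to 2.59 in AML Control. Of 9 macrophage genes 2 rose, Vcam1 by 5.41, and 2 fell, Cd68 by 2.26. The part of these shifts in the result was not tested.

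**Figure D1:**
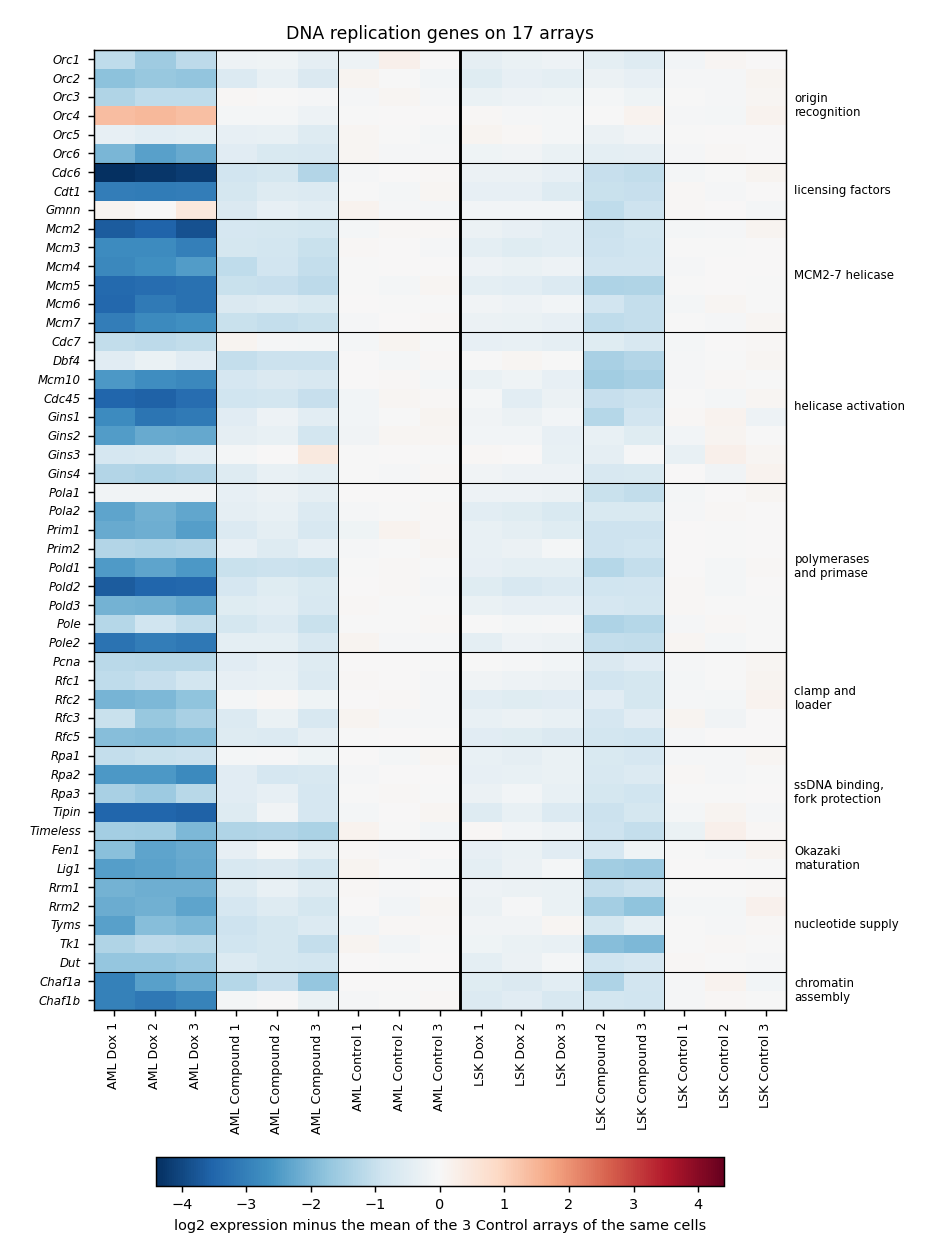
Each row is 1 of the 51 genes, grouped by role, and each column is 1 of the 17 arrays used. Colour gives the gene's log2 expression minus its own mean over the 3 Control arrays of the same cell type. The AML Dox columns are the lowest for most rows, and Orc4 is the row that was called the other way. The 2 LSK Compound columns are lower than the LSK Dox columns for most rows, but Orc2, Orc3 and Orc4 have a higher mean in LSK Compound.

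The origin recognition complex marks the places where replication can start. Of its 6 genes, 5 fell in AML Dox (median of all 6 -1.23). Orc6, the smallest subunit of the complex, had 5.23, 4.86 and 5.02 log2 units in AML Dox, 6.75, 6.58 and 6.55 in AML Compound, and 7.33, 7.21 and 7.19 in AML Control. The 3 groups did not overlap, with Dox lowest. The change in AML Dox was -2.21 (SE 0.10, limma adjusted p = 3.48e-12) and that in AML Compound -0.62 (SE 0.10, adjusted p = 9.51e-05). Orc2 (-1.75), Orc1 (-1.28) and Orc3 (-1.18) fell less, and Orc5, at -0.42, fell by about as much in AML Compound (-0.43). Orc1, an ATPase subunit, was not called in AML Compound (-0.26, adjusted p = 0.149), nor were Orc3 (0.00) and Orc4 (-0.13).

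Orc4, another ATP-binding subunit of the same complex, was the one gene of the set that rose under Dox. It had 7.78, 7.85 and 7.75 log2 units in AML Dox, 6.35, 6.33 and 6.22 in AML Compound, and 6.41, 6.44 and 6.44 in AML Control. All 3 AML Dox arrays stood above every other array, and the AML Compound and AML Control arrays lay close together. The increase was 1.36 (2.57-fold, SE 0.09, limma adjusted p = 5.02e-10). In LSK Dox, Orc4 was at 6.54, 6.43 and 6.39 against 6.43, 6.39 and 6.64 in LSK Control, so these groups overlapped (-0.03, adjusted p = 0.871). Orc4 is represented by a single probe set, so no second probe set measured the same transcript. With LSK Compound replicate 1 included in the fit, the AML change was the same 1.36 but its adjusted p was 0.12.

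Licensing of origins depends on Cdc6 and Cdt1, which load MCM2-7, and is held in check by geminin (Gmnn), which binds Cdt1. Cdc6 showed the largest fall of the whole set. It had 2.59, 2.82 and 2.92 log2 units in AML Dox, 6.26, 6.33 and 5.82 in AML Compound, and 7.03, 7.10 and 7.15 in AML Control. The AML Dox arrays had medians of 2.75 over all probe sets, so Cdc6 lay near the lower end of their range. This limits the size of a fall that can be measured. AML Dox was far below both other groups, and AML Compound was below AML Control on every array. The difference was -4.32 in AML Dox (SE 0.12, adjusted p = 1.79e-14) and -0.96 in AML Compound (SE 0.12, adjusted p = 9.41e-06). Cdt1 fell by 3.05 in AML Dox and 0.65 in AML Compound. Gmnn did not follow them under Dox. It had 5.52, 5.41 and 5.88 in AML Dox, 4.76, 5.06 and 4.94 in AML Compound, and 5.55, 5.35 and 5.30 in AML Control. AML Dox overlapped AML Control (0.20, SE 0.12, adjusted p = 0.181), whereas AML Compound was below both (-0.48 against AML Control, adjusted p = 0.00428).

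The 6 subunits of MCM2-7, the ring that unwinds the parental strands, fell together and by similar amounts, between -3.68 (Mcm2) and -2.66 (Mcm4) in AML Dox, with a median of -3.07. Mcm2 had 4.55, 4.69 and 4.40 log2 units in AML Dox, 7.49, 7.44 and 7.43 in AML Compound, and 8.15, 8.26 and 8.26 in AML Control. The order of the groups was the same on all arrays, and the distance from AML Compound to AML Control was small beside that from AML Dox to AML Compound. The change in AML Dox was 12.8-fold (SE 0.09 on the log2 scale, adjusted p = 6.18e-15). Mcm5 had 5.59, 5.64 and 5.72 in AML Dox, 8.03, 7.98 and 7.84 in AML Compound, and 8.99, 8.91 and 9.09 in AML Control. It fell by 3.35 in AML Dox (SE 0.08, adjusted p = 4.95e-15) and by 1.05 in AML Compound (SE 0.08, adjusted p = 4.58e-08), the largest fall of an MCM subunit under the cocktail. All 6 subunits also fell in AML Compound, down to -0.63 for Mcm6, which lay at -3.28 in AML Dox.

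The promoters of 5 genes are printed here because they span the range of the Dox response: Mcm5, Mcm6 and Cdc6 among the genes that fell most, Pola1, which was not called, and Orc4, which rose. RefSeq's table for GRCm38.p6 gives windows from 250 bases before to 50 bases after a start site for 43 of the 52 genes. For 33 of them that site lies within 50 bases of the annotated 5' end of the gene, and for the other 10 it lies further inside the gene. It is at the 5' end for Mcm6 and 41 bases inside for Mcm5, but 232 bases inside for Pola1, 442 for Cdc6 and 2821 for Orc4, so the last 3 windows describe sequence around an internal start. The windows lie at chr8:75109259-75109558 on the plus strand (Mcm5), chr1:128359656-128359955 on the minus strand (Mcm6), chr11:98907901-98908200 on the plus strand (Cdc6), chrX:93632106-93632405 on the minus strand (Pola1) and chr2:48950032-48950331 on the minus strand (Orc4). Each is written 5' to 3' along the gene, and capitals mark matches, on either strand, to the E2F words TTTCCCGC, TTTGGCGC, TTTCGCGC and TTTGCCGC.
Mcm5: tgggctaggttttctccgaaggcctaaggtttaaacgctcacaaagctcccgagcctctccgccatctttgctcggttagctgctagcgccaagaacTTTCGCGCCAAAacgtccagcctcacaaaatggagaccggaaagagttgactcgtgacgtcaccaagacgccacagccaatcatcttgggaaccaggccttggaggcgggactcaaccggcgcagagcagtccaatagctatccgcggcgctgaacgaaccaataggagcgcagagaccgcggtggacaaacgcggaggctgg
Mcm6: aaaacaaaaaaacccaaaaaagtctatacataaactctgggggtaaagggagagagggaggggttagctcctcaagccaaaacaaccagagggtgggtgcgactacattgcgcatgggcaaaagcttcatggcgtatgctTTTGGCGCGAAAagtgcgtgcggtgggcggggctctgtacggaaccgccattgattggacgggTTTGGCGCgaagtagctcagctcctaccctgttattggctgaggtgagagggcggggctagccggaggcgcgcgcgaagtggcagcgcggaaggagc
Cdc6: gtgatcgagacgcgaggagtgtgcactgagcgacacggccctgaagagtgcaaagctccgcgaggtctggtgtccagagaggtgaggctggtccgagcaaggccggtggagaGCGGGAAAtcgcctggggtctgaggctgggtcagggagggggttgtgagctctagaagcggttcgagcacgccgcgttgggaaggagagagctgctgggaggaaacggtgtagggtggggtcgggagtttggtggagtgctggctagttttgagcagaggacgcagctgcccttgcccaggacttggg
Pola1: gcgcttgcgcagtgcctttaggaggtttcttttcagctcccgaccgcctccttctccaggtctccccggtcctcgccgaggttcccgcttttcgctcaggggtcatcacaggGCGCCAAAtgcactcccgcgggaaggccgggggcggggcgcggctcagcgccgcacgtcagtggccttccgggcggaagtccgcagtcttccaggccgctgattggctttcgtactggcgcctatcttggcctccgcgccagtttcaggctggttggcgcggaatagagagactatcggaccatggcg
Orc4: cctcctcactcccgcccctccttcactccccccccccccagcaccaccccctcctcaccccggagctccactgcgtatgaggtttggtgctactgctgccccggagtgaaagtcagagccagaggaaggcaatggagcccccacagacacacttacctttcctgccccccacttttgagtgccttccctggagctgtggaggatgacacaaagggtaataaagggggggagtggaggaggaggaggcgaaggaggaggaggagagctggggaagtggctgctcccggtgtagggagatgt

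Mcm5 held 2 matches, at -153 and -149 from the window's start site, which overlap on opposite strands and are printed as 1 run. Mcm6 held 3, an overlapping pair at -110 and -106 and a single match at -47, and Cdc6 and Pola1 held 1 each, both at -138. Orc4 held none in this window. The printed genes do not stand for all large falls. Mcm2 (-3.68), Pold2 (-3.54) and Cdc45 (-3.47) fell more in AML Dox than Mcm5 and Mcm6, and their windows held no match. An E2F word occurred in 14 of the 43 windows (32.6%), against 510 of 17492 windows of protein-coding genes (2.92%). Of the MCM2-7 genes, 5 had a window and 4 of these held a match. Other words were less uneven between the sets. The cell-cycle homology words TTTGAA and TTCGAA occurred in 18.6% of the gene set's windows and 18.2% of all, CCAAT in 53.5% and 39%, and the E-box CACGTG in 14% and 7.9%. Genes with and without an E2F word fell under Dox in AML cells in these numbers: 13 of 14 with a match fell (median -2.64) and 27 of 28 without one fell (median -2.10). In LSK Compound the counts were 12 of 14 (median -0.97) and 26 of 28 (median -0.83). In AML Compound they were 11 of 14 and 23 of 28 (median -0.60 each). In LSK Dox they were 9 of 14 (median -0.31) and 12 of 28 (median -0.27). A match describes these letters only and is neither a binding site nor a cause, and the absence of a match covers only this window.

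**Figure D2:**
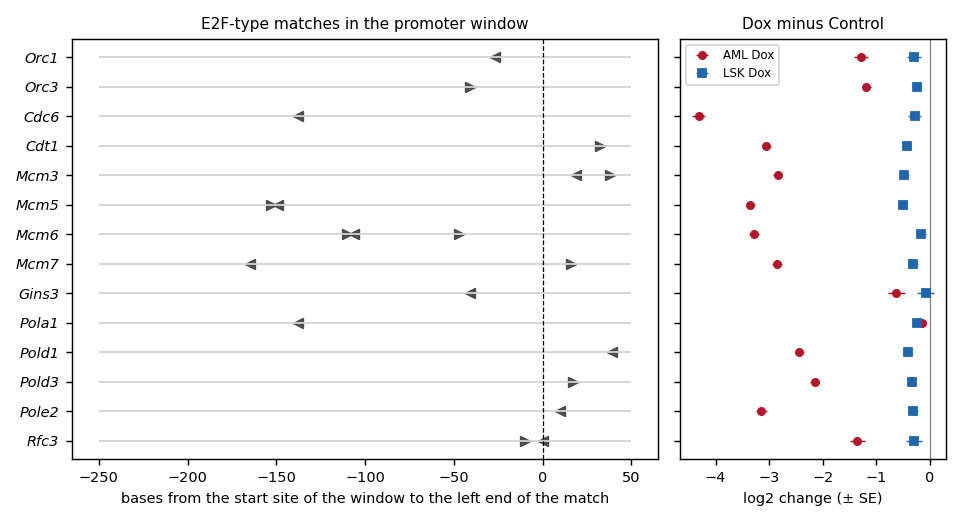
Left, E2F word matches in the promoter windows of the 14 genes that hold one, by the distance in bases from the window's start site to the left end of the match, with the arrowhead giving the strand. Right, log2 change under Dox with its standard error in AML Dox (circles) and LSK Dox (squares). The 20 matches begin between -165 and 39, and the AML changes of these genes run from -4.32 (Cdc6) to -0.15 (Pola1).

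Helicase activation needs the kinase Cdc7 with its regulatory subunit Dbf4, the loading factor Mcm10, Cdc45 and the 4 GINS subunits. All 8 fell in AML Dox. Cdc45, which joins MCM2-7 and GINS in the active helicase, had 3.56, 3.49 and 3.73 log2 units in AML Dox, 6.17, 6.25 and 6.05 in AML Compound, and 6.94, 7.13 and 7.11 in AML Control. None of the 3 groups overlapped. It fell by 3.47 in AML Dox (SE 0.10, adjusted p = 3.64e-14) and by 0.91 in AML Compound (SE 0.10, adjusted p = 3.28e-06). Gins1 (-3.03), Mcm10 (-2.70) and Gins2 (-2.31) also fell by more than the others of this subgroup, Gins4 (-1.31), Cdc7 (-1.10) and Gins3 (-0.63). With a mean of 2.95 in AML Dox, Gins1 too lay near the lower end of the range of those arrays.

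Dbf4 ran in another order. It had 5.78, 6.01 and 5.80 log2 units in AML Dox, 5.25, 5.36 and 5.35 in AML Compound, and 6.32, 6.20 and 6.36 in AML Control. AML Compound, not AML Dox, was lowest. The fall was 0.43 in AML Dox (SE 0.09, adjusted p = 0.00045) and 0.97 in AML Compound (SE 0.09, adjusted p = 2.15e-07). Its catalytic partner Cdc7 showed the reverse, falling in AML Dox but not being called in AML Compound (-0.01, adjusted p = 0.953). In that comparison Gins3 was not called either (0.11, adjusted p = 0.666). Gins1 was called at -0.39 (adjusted p = 0.0326) but not after leaving out AML Control replicate 3 (adjusted p = 0.122), nor in 3 of the other leave-one-out fits.

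Of the 9 polymerase and primase genes, 8 fell in AML Dox (median of all 9 -2.24), and all 9 fell in AML Compound (median -0.56). Pold2, an accessory subunit of the lagging-strand polymerase delta, had 3.84, 4.04 and 4.04 log2 units in AML Dox, 6.78, 6.98 and 6.85 in AML Compound, and 7.52, 7.57 and 7.44 in AML Control. It fell by 3.54 in AML Dox (11.6-fold, SE 0.09, adjusted p = 4.95e-15) and by 0.64 in AML Compound. Pold1, the catalytic subunit of that polymerase, had 4.28, 4.46 and 4.25 in AML Dox, 5.80, 5.82 and 5.80 in AML Compound, and 6.76, 6.81 and 6.74 in AML Control. Both subunits kept the order Dox, Compound, Control with no overlap. The fall of Pold1 was 2.44 in AML Dox and 0.96 in AML Compound (SE 0.08 each), the largest of the subgroup under the cocktail. Pold3 fell by 2.15 in AML Dox.

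Polymerase epsilon, which copies the leading strand, was uneven. Its subunit Pole2 fell by 3.14 in AML Dox, and its catalytic subunit Pole by 1.08. A second Pole probe set, with a mean of only 2.35 over the 17 arrays, changed by -0.06. In polymerase alpha-primase, which lays down the RNA-DNA primers, the catalytic subunit Pola1 had 6.98, 7.0 and 7.01 log2 units in AML Dox, 6.78, 6.91 and 6.76 in AML Compound, and 7.16, 7.16 and 7.14 in AML Control. The AML Dox arrays lay just under the AML Control arrays, and the difference was not called (-0.15, SE 0.08, adjusted p = 0.12). Centring each array on its median moved Pola1 to -0.24 (adjusted p = 0.0259). The partners of Pola1 fell more, Pola2 by 2.24, Prim1 by 2.27 and Prim2 by 1.32.

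The sliding clamp PCNA holds polymerases on DNA, and replication factor C loads it. All 5 measured genes fell in AML Dox, by less than the helicase genes (median -1.35). Pcna was at 8.62, 8.59 and 8.59 log2 units in AML Dox, 9.32, 9.44 and 9.24 in AML Compound, and 9.81, 9.81 and 9.80 in AML Control, which is a fall of 1.21 under Dox and 0.47 under the cocktail. Rfc2 had 5.43, 5.49 and 5.69 in AML Dox, 7.37, 7.50 and 7.27 in AML Compound, and 7.47, 7.51 and 7.41 in AML Control. Its AML Compound and AML Control arrays overlapped. Rfc2 fell by 1.93 in AML Dox (SE 0.10, adjusted p = 3.16e-11) and was not called in AML Compound (-0.08, adjusted p = 0.603). Rfc5 had 4.98, 4.95 and 5.03 in AML Dox, 6.28, 6.25 and 6.46 in AML Compound, and 6.85, 6.89 and 6.85 in AML Control. It fell in both, by 1.87 under Dox and by 0.53 under the cocktail (SE 0.08 each). Rfc3 (-1.35) and Rfc1 (-0.99) fell in AML Dox too.

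Single-stranded DNA at the fork is coated by RPA, and Tipin and Timeless form a complex that keeps the helicase and the polymerases together. Tipin had 4.00, 4.02 and 3.92 log2 units in AML Dox, 6.91, 7.34 and 6.76 in AML Compound, and 7.40, 7.50 and 7.57 in AML Control. AML Dox was far below the others, and the AML Compound arrays lay just under the AML Control arrays. The fall was 3.51 in AML Dox (SE 0.13, adjusted p = 3.04e-13) and 0.48 in AML Compound (SE 0.13, adjusted p = 0.00681). Timeless, its partner, had 4.36, 4.32 and 3.88 in AML Dox, 4.51, 4.55 and 4.43 in AML Compound, and 6.01, 5.82 and 5.71 in AML Control. Here both treatments lay far below Control, at -1.66 under Dox and -1.34 under the cocktail (SE 0.14 each), the largest fall of the whole set in AML Compound. The difference between the treatments was not called (-0.32, SE 0.14, adjusted p = 0.0789). Rpa2 fell by 2.62 in AML Dox, Rpa3 by 1.41 and Rpa1 by 0.98, and of these Rpa1 was not called in AML Compound (-0.12, adjusted p = 0.291). A second Rpa3 probe set was 1.29 lower in AML Dox. A second Rpa1 probe set, with a mean of only 2.48 over the 17 arrays, changed by -0.28.

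Fen1, the nuclease that trims the flaps of Okazaki fragments, and Lig1, the ligase that seals them, both fell in AML Dox. Lig1 had 4.91, 4.99 and 5.08 log2 units in AML Dox, 6.62, 6.71 and 6.53 in AML Compound, and 7.47, 7.32 and 7.25 in AML Control. The groups did not overlap, and the falls were 2.35 (SE 0.10, adjusted p = 1.45e-12) and 0.72 (SE 0.10, adjusted p = 1.81e-05). Fen1 fell by 2.13 in AML Dox and was not called in AML Compound (-0.29, adjusted p = 0.15). Its second, dimmer probe set was 1.0 lower in AML Dox. With the mean of both probe sets Fen1 was called lower in AML Compound (adjusted p = 0.0163).

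The genes of deoxynucleotide supply all fell in both treatments of AML cells. Rrm2, the regulated subunit of ribonucleotide reductase, had 4.60, 4.69 and 4.48 log2 units in AML Dox, 6.06, 6.22 and 6.03 in AML Compound, and 6.82, 6.69 and 6.87 in AML Control. Dox was lowest and the cocktail lay between. Rrm2 fell by 2.20 in AML Dox (SE 0.11, adjusted p = 1.7e-11) and by 0.69 in AML Compound. Tk1, the thymidine kinase of the salvage pathway, had 5.52, 5.67 and 5.62 in AML Dox, 5.97, 6.08 and 5.81 in AML Compound, and 6.97, 6.72 and 6.83 in AML Control. It fell by 1.23 and 0.89 (SE 0.09 each), so for Tk1 the 2 treatments lay closer to each other than for Rrm2. The larger reductase subunit Rrm1 fell by 2.12 in AML Dox, Tyms, which makes dTMP, by 2.08, and Dut, which clears dUTP, by 1.67. Second, dimmer probe sets of Dut and Rrm2 had means of 2.94 and 2.31 over the 17 arrays. They changed by -0.49 (Dut) and -0.67 (Rrm2) in AML Dox.

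Chaf1a and Chaf1b are subunits of chromatin assembly factor 1, which deposits histones behind the fork. Chaf1b had 4.71, 4.55 and 4.74 log2 units in AML Dox, 7.61, 7.71 and 7.40 in AML Compound, and 7.65, 7.67 and 7.75 in AML Control. It fell by 3.02 in AML Dox (SE 0.09, adjusted p = 4.84e-14), while AML Compound overlapped AML Control (-0.12, adjusted p = 0.396). Chaf1a had 3.79, 4.37 and 4.59 in AML Dox, 5.50, 5.75 and 5.05 in AML Compound, and 6.78, 6.78 and 6.73 in AML Control. Chaf1a was below Control under both treatments, by 2.51 (adjusted p = 4.21e-09) and 1.33 (adjusted p = 3.85e-05), each with an SE of 0.19.

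**Figure D3:**
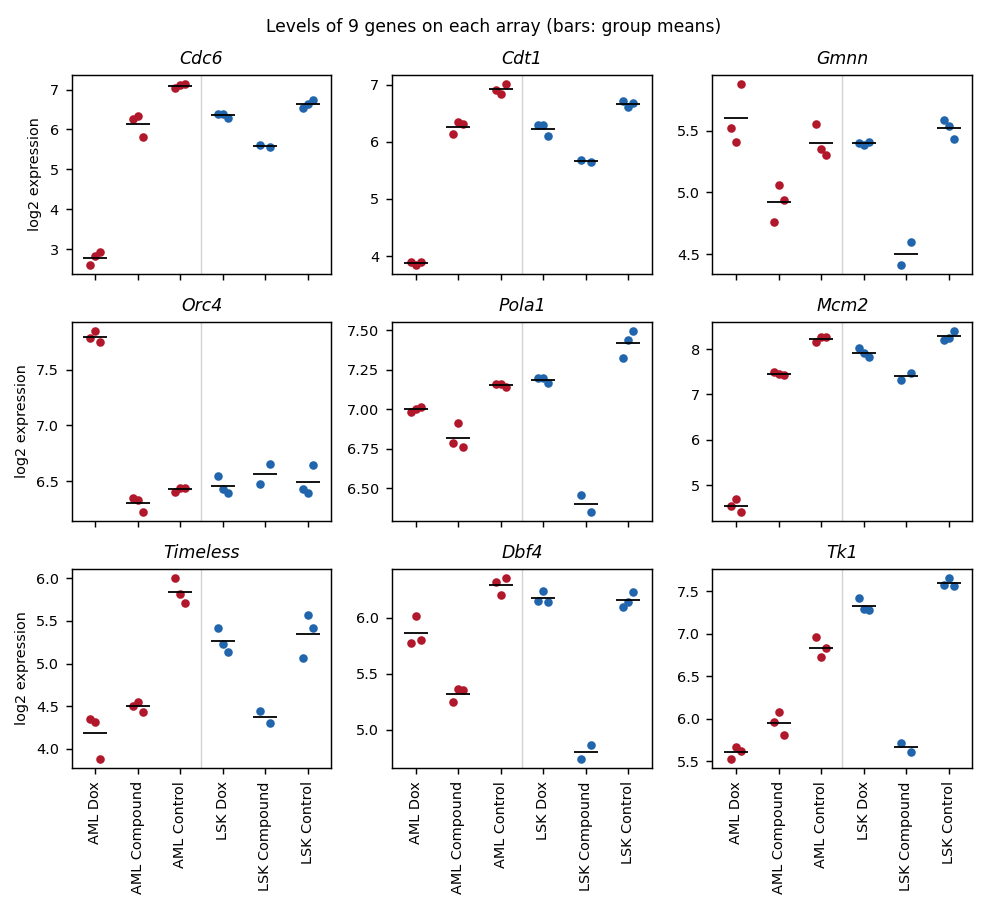
Log2 expression of selected genes on each of the 17 arrays, with groups from left to right AML Dox, AML Compound, AML Control, LSK Dox, LSK Compound and LSK Control. Points are arrays and bars are group means. Cdc6 lies between 2.59 and 2.92 in AML Dox and between 7.03 and 7.15 in AML Control, and Orc4 lies between 7.75 and 7.85 in AML Dox and between 6.41 and 6.44 in AML Control.

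In AML cells the set was lower than Control under the cocktail too, but more mildly than under Dox. In AML Compound, 42 of 51 genes (82.4%) were called lower than in AML Control and 0 higher. Among all genes tested, 19.2% were called lower and 12.8% higher. The median change of the set was -0.54, beside -0.03 for all genes. The 5 largest falls were those of Timeless (-1.34), Chaf1a (-1.33), Mcm5 (-1.05), Mcm7 (-1.01) and Mcm4 (-1.0). The 9 genes not called were Orc1, Orc3, Orc4, Cdc7, Gins3, Rfc2, Rpa1, Fen1 and Chaf1b. With LSK Compound replicate 1 in the fit, 4 genes were called lower (Chaf1a, Mcm10, Timeless and Tk1), with the same changes in AML cells. Macrophage genes moved the other way in the same arrays. Of 9 such genes 8 were called higher, and their mean was 5.47 to 5.58 in AML Compound and 3.86 to 3.96 in AML Control. Of 7 mature neutrophil genes tested 2 were higher and 1 lower, and the mean of the 9 with a probe set was 3.33 to 3.40 in AML Compound and 2.43 to 2.52 in AML Control. Of 9 progenitor genes 5 were higher and 1 lower. The part of these shifts in the result was not tested.

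Set directly against each other, 45 of the 51 genes were called lower in AML Dox than in AML Compound and 3 higher. The median difference was -1.51. Of all genes tested, 24.7% were lower and 23% higher in that comparison. The 5 largest differences were those of Cdc6 (-3.36), Tipin (-3.03), Mcm2 (-2.91), Chaf1b (-2.91) and Pold2 (-2.90). The 3 genes called higher in AML Dox were Orc4 (1.49), Gmnn (0.68) and Dbf4 (0.54), each of which has its values by array above. Orc5 (0.00), Pola1 (0.18) and Timeless (-0.32) were not called.

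**Figure D4:**
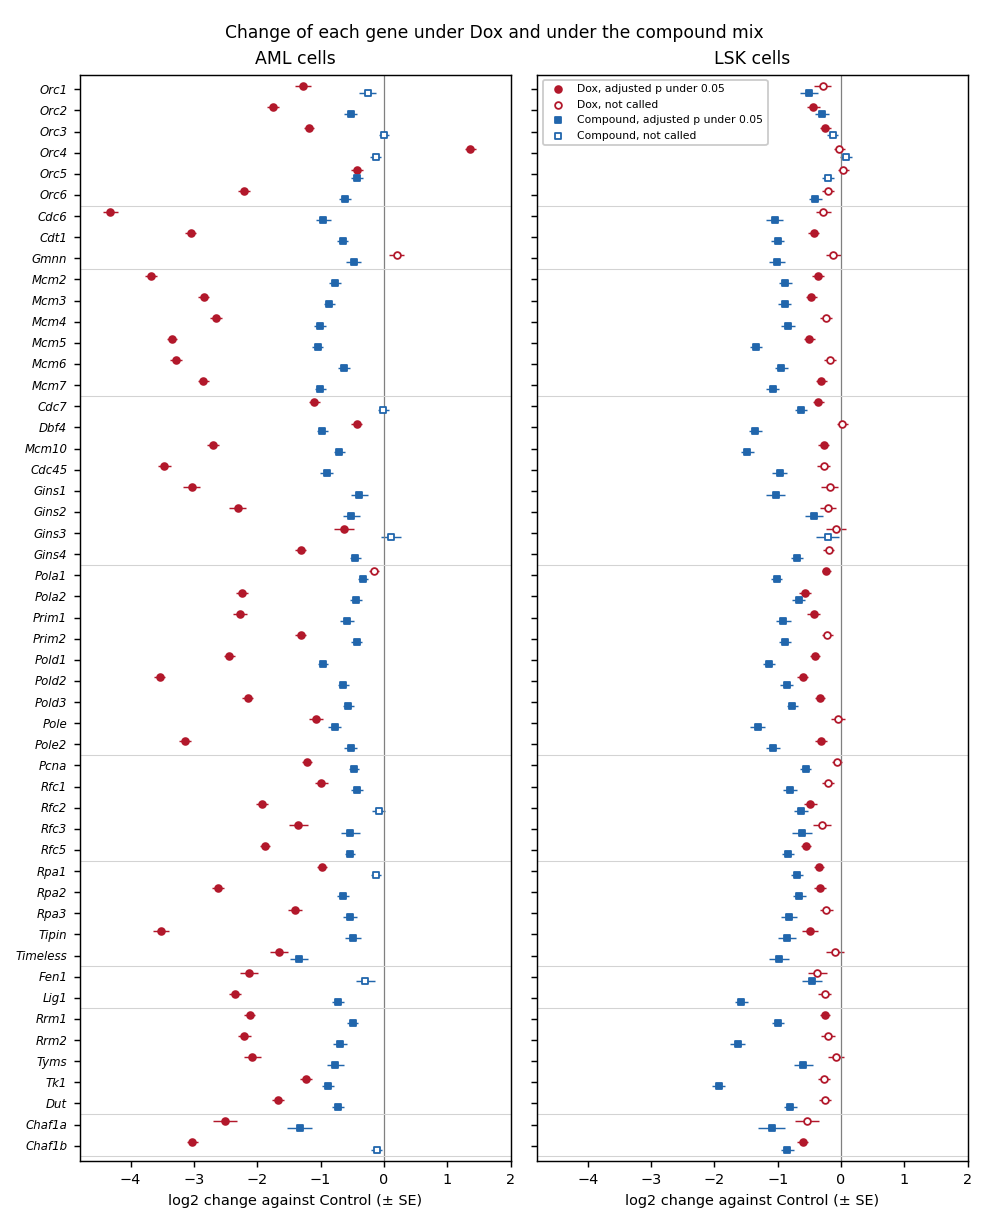
Log2 change against Control with its standard error for each of the 51 genes, under Dox (circles) and under the compound mix (squares), in AML cells on the left and LSK cells on the right. Filled symbols have an adjusted p under 0.05. In AML cells the Dox changes run from -4.32 to 1.36 and lie left of the Compound changes for most genes. In LSK cells the Compound changes lie further left for most genes.

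In LSK cells the order of the treatments was reversed. In LSK Compound 47 of 51 genes (92.2%) were called lower than in LSK Control and 0 higher, with a median of -0.86. Among all genes tested, 20% were called lower and 14.2% higher. In LSK Dox 23 of 51 (45.1%) were called lower than in LSK Control and 0 higher, with a median of -0.28. Here 9.93% of all genes tested were called lower and 9.21% higher. Directly compared, 35 of 51 were called higher in LSK Dox than in LSK Compound and 0 lower (18% and 14.3% of all genes tested). The median difference of the set was 0.52. The largest of these differences were those of Tk1 (1.67), Rrm2 (1.43), Dbf4 (1.37), Lig1 (1.31) and Pole (1.26). In LSK Compound, macrophage genes averaged 5.18 to 5.20 against 4.45 to 4.58 in LSK Control, with 3 of 9 higher and 2 lower. Mature neutrophil genes averaged 3.82 to 3.87 in LSK Compound against 4.87 to 5.02 in LSK Control, with 5 of 7 lower and 1 higher, and mast cell and basophil genes 3.16 to 3.24 against 3.59 to 3.73, with 2 of 3 lower and 1 higher. Of 9 progenitor genes tested 4 were lower and 2 higher in LSK Compound, while the mean of the 10 with a probe set was higher. That mean was 5.97 to 6.08 in LSK Compound against 5.71 to 5.84 in LSK Control. In LSK Dox, mast cell and basophil genes averaged 2.5 to 2.63, with 3 of 3 lower than in LSK Control, and neutrophil genes 4.43 to 4.48, with 4 of 7 lower. Progenitor genes averaged 6.18 to 6.20 in LSK Dox against 5.71 to 5.84 in LSK Control, with 5 of 9 higher and 2 lower. The part of these shifts in the results was not tested.

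Tk1 fell most in LSK Compound. It had 5.72 and 5.61 log2 units in LSK Compound, 7.42, 7.30 and 7.28 in LSK Dox, and 7.57, 7.66 and 7.57 in LSK Control. The LSK Compound arrays lay far below both other groups, and the LSK Dox arrays just under the LSK Control arrays. The change in LSK Compound was -1.93 (3.82-fold, SE 0.10, adjusted p = 1.42e-10) and that in LSK Dox was not called (-0.27, adjusted p = 0.0556). Rrm2 had 5.29 and 5.05 in LSK Compound, 6.53, 6.76 and 6.51 in LSK Dox, and 6.71, 6.71 and 7.0 in LSK Control. It fell by 1.64 in LSK Compound (adjusted p = 1.16e-08), and its LSK Dox arrays overlapped LSK Control (adjusted p = 0.231). Lig1 (-1.58), Mcm10 (-1.48) and Dbf4 (-1.35) completed the 5 largest falls. Dbf4 was at 4.74 and 4.87 in LSK Compound, 6.15, 6.24 and 6.14 in LSK Dox, and 6.10, 6.14 and 6.23 in LSK Control, so these last 2 groups overlapped (0.02, adjusted p = 0.918). The genes not called in LSK Compound were Orc3, Orc4, Orc5 and Gins3.

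The genes that fell in LSK Dox did so by small amounts. The largest falls were those of Pold2 and Chaf1b (-0.61 each), Pola2 (-0.57), Rfc5 (-0.55) and Mcm5 (-0.50). Pold2 had 6.98, 6.82 and 6.89 log2 units in LSK Dox against 7.55, 7.43 and 7.54 in LSK Control, and Mcm5 had 8.29, 8.26 and 8.13 in LSK Dox against 8.71, 8.74 and 8.72 in LSK Control. Neither gene's groups overlapped. Cdc6, the gene that fell most in AML Dox, had 6.39, 6.39 and 6.28 in LSK Dox and 6.54, 6.63 and 6.75 in LSK Control (-0.28, adjusted p = 0.12). By subgroup, 7 of 9 polymerase and primase genes and 4 of 6 MCM2-7 genes were called lower in LSK Dox. The counts were 1 of 5 for nucleotide supply and 0 of 2 for Okazaki fragment maturation. The median changes lay closer together, at -0.33, -0.34, -0.25 and -0.32 in the same order. For Fen1 and Lig1 the LSK Dox arrays lay wholly below the LSK Control arrays. The count of 23 depended on single arrays and fell to 15 without LSK Control replicate 3. With LSK Compound replicate 1 included in the fit it was 0.

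A test of the difference in responses compared the Dox change in AML cells with that in LSK cells. For 47 of 51 genes (92.2%) the AML change was called lower, and for 1 it was called higher, with a median difference of -1.82. Among all genes tested, 21.5% and 18.6% were called lower and higher. The largest differences were those of Cdc6 (-4.03, SE 0.17, adjusted p = 1.4e-11), Mcm2 (-3.32), Cdc45 (-3.19), Mcm6 (-3.11) and Tipin (-3.02). Orc4 was the gene with the AML change called higher (1.40, SE 0.12, adjusted p = 8.28e-08). Gmnn (0.32), Gins3 (-0.55) and Pola1 (0.08) were not called. Klf4 itself rose more in AML than in LSK cells, by 1.49 (adjusted p = 5.03e-07), and Myc fell more, by 3.50 (adjusted p = 2.96e-10). The part of either in the result was not tested.

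For the cocktail the difference in responses ran the other way and was smaller. Of all genes tested, 8.69% were called higher and 8.37% lower in this comparison. In the set the AML change was called higher, that is milder, for 15 of 51 genes (29.4%) and lower for 0. The median difference was 0.24. The 5 largest were those of Tk1 (1.05, SE 0.14, adjusted p = 3.15e-05), Rrm2 (0.95, SE 0.16, adjusted p = 0.000481), Lig1 (0.85), Mcm10 (0.78) and Chaf1b (0.73). Chaf1b had 7.05 and 6.99 log2 units in LSK Compound against 7.83, 7.92 and 7.85 in LSK Control, with no overlap, while AML Compound overlapped AML Control as given above. The others called were Pola1, Gins1, Cdc7, Rpa1, Rfc2, Pole2, Pole, Gmnn, Rrm1 and Prim2. With all 18 arrays in the fit, 2 genes were called, Tk1 and Mcm10.

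**Figure D5:**
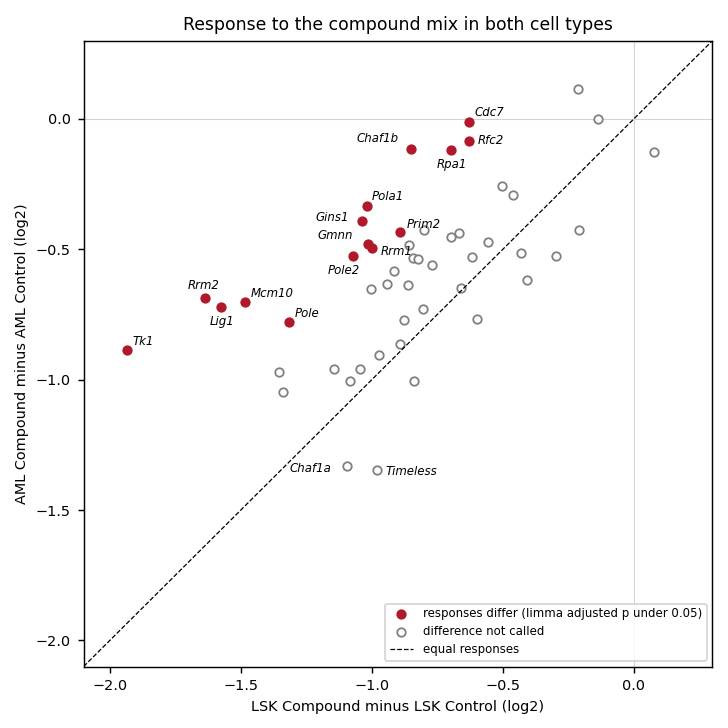
Change under the compound mix in LSK cells (horizontal axis, log2) and in AML cells (vertical axis, log2) for the 51 genes. Filled points are the 15 genes whose 2 changes differ by the test. All of these lie above the line of equal change, with Tk1 at -1.93 in LSK cells and -0.89 in AML cells.

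Across the 51 genes, the Dox changes in AML and LSK cells correlated at r = 0.56 (Spearman's rho 0.53), and the Compound changes in the 2 cell types at r = 0.58 (rho 0.62). Across treatments, the AML Dox and LSK Compound changes correlated at r = 0.33 (rho 0.36). Those of AML Compound and LSK Dox correlated at r = 0.02 (rho 0.06). These are descriptions over genes measured on the same arrays, which are not independent replicates. Of the 51 genes, 17 were called lower in all 4 treatment comparisons, as were 3.25% of all genes tested. The treatment comparisons of a cell type share their Control arrays.

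Without treatment, the shares of the set called were near those of all genes. In AML Control relative to LSK Control 11 genes were higher (21.6%) and 7 lower (13.7%), where 15.4% and 14.2% of all genes tested were called higher and lower, with a median difference of 0.00. Chaf1a had 6.78, 6.78 and 6.73 log2 units in AML Control against 5.85, 6.06 and 5.77 in LSK Control, a difference of 0.87 (SE 0.19, adjusted p = 0.00199). Cdc45 had 6.94, 7.13 and 7.11 in AML Control against 6.31, 6.26 and 6.44 in LSK Control (0.73, SE 0.10, adjusted p = 3.19e-05). For neither gene did the groups overlap. Orc5 (0.55), Mcm10 (0.53) and Timeless (0.49) followed among the higher genes. Tk1 was the gene furthest below LSK, with 6.97, 6.72 and 6.83 in AML Control against 7.57, 7.66 and 7.57 in LSK Control (-0.76, SE 0.09, adjusted p = 6.21e-06). The other 6 lower genes were Prim1 (-0.53), Pola2 (-0.35), Pold1 (-0.33), Pola1, Dut and Cdc7, 4 of which belong to the polymerases and primase. These counts moved with the scaling and with single arrays. After quantile normalization 10 were higher and 13 lower. The lower count was 4 without LSK Control replicate 3, and the higher count was 6 without LSK Control replicate 1 and 7 without AML Control replicate 1 or 3.

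Another 3 lists of related genes outside the set were read from the same fit. Of 28 other replication genes, 22 fell and 2 rose in AML Dox (median -1.38), 22 fell in AML Compound, 10 in LSK Dox and 23 in LSK Compound, with 0 higher in these 3 comparisons. Over all genes tested the shares called lower were 25.6%, 19.2%, 9.93% and 20%, and 23% were called higher in AML Dox. Those with the smallest p in AML Dox were Dna2 (-3.23), a nuclease-helicase of Okazaki processing, Exo1 (-3.52), an exonuclease, Dtl (-3.32), which targets Cdt1 for destruction, and Uhrf1 (-3.38), which couples DNA methylation to replication. Of 17 other nucleotide supply genes, 13 fell and 4 rose in AML Dox, and the share that rose was close to the 23% of all genes called higher. Gart (-3.45) and Cad (-3.02), enzymes of purine and pyrimidine synthesis, and Dtymk (-2.36), the thymidylate kinase, fell. Samhd1, which breaks down deoxynucleotides, rose in all 4 comparisons, by 1.95 in AML Dox, 0.71 in AML Compound, 1.22 in LSK Dox and 2.06 in LSK Compound. Of 16 E2F and pocket protein genes, 12 fell and 3 rose in AML Dox, and 14 fell and 1 rose in LSK Compound, where 25.6% and 20% of all genes were called lower and 23% and 14.2% higher. In AML Dox the retinoblastoma gene Rb1, which holds E2F in check, was 2.49 higher. Its relative Rbl1 was 2.56 lower, E2f4 2.22 lower and the E2F partner Tfdp1 2.15 lower.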

How the data were processed

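RNA from 18 samples was labelled and hybridised to Affymetrix whole-transcript arrays. The authors deposited log2 expression values per probe set, and RMA is the method that the submitters' processing notes name; its settings and version are not recorded there. RMA background-corrects the probes, normalizes across arrays and summarises them per probe set, so values are relative within the series and do not show a change in total RNA. Of 41345 probe sets, GEO's platform annotation lists 23521 with 1 gene, 1814 with several and 16010 not at all. Only the first kind was used.

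For 17 arrays (without LSK Compound replicate 1), the probe set with the highest mean was kept per gene, and genes above the array's 40th percentile on at least 3 arrays were tested. One mean per group was fitted with limma 3.58.1 (R 4.3.3, lmFit, contrasts, eBayes; 11 residual and 5.26 prior degrees of freedom), with Benjamini-Hochberg adjustment over 16337 genes for each comparison and a threshold of 0.05. All p-values are two-sided. They measure the spread between arrays of a group, and 2 or 3 arrays a group limit the precision. The standard deviation of a gene of the set within a group was at most 0.41. The fit was tested on simulated data.

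Values by array are given for the called gene of each subgroup with the largest change in AML Dox, for the one with the largest change in AML Compound, for genes called against the majority, and for genes taken up in the text after their values were seen (Pcna, Gmnn, Pola1). The 5 largest changes each way are named per comparison. Of each related list, up to 4 genes with the smallest p in AML Dox are named, with all 4 reprogramming factors. The gene set and all lists were chosen with earlier results of these data known. Promoter sequences are RefSeq's (GRCm38.p6), matched by symbol, the first listed window where a gene had several; windows follow the table's own start sites, not always the annotated 5' end. Alternatives covered all 18 arrays, array weights, a replicate block, each comparison's own arrays, centring, quantile normalization, filters, probe set choice and leaving out each array.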

Additional observations from a re-analysis of the deposited data

Results flagged for a closer look

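The responses of the replication genes differed between the cell types by a test of the difference itself. Under Dox, the AML change was called lower than the LSK change for 47 of the 51 genes and higher for 1. Of all genes tested, 21.5% were called lower and 18.6% higher. The largest differences in the set were -4.03 for Cdc6, -3.32 for Mcm2, -3.19 for Cdc45, -3.11 for Mcm6 and -3.02 for Tipin. They are AML change minus LSK change on the log2 scale, and Orc4 stood at 1.40 in the other direction. Under the cocktail, the AML change was called higher than the LSK change for 15 of the 51 genes and lower for 0. Of all genes tested, 8.69% were called higher and 8.37% lower. In the set the largest differences were 1.05 for Tk1, 0.95 for Rrm2, 0.85 for Lig1, 0.78 for Mcm10 and 0.73 for Chaf1b. The cocktail difference rests on 2 LSK Compound arrays, whose sex-linked transcripts differ from those of the other LSK arrays.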

How the results depend on the processing

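No gene of the set that was called, in the fit reported or in an alternative, changed sign between them in the comparisons run. The balance of calls between the Controls did turn after quantile normalization, with 10 higher and 13 lower in place of 11 and 7. The choice that moved most was the use of all 18 arrays, which keeps the AML changes as they are and adds the spread of LSK Compound replicate 1 to every test. Genes of the set called lower were then 41 in AML Dox, 4 in AML Compound, 0 in LSK Dox and 42 in LSK Compound, and 0 were higher in AML Dox. In AML Control relative to LSK Control 1 was lower and 3 higher. The Dox responses differed for 26 (lower) and 0 (higher), the Compound responses for 2 (higher), AML Dox lay above AML Compound for 1 and LSK Dox above LSK Compound for 22. Over all genes tested, calls with 18 arrays against 17 were 4240 against 7935 in AML Dox, 1064 against 5232 in AML Compound, 602 against 3127 in LSK Dox, 2925 against 5590 in LSK Compound and 1433 against 4828 between Controls. They were 2227 against 6547 for the Dox responses, 520 against 2786 for the Compound responses, 3888 against 7791 for AML Dox over AML Compound and 2547 against 5283 for LSK Dox over LSK Compound. Array weights, the other filters, centring, each comparison's own arrays and the probe set choice kept every count of the set within 1.5 times.

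Leaving out 1 array at a time gave 48 genes lower in AML Dox each time, 41 to 43 in AML Compound, 15 to 19 in LSK Dox (15 without LSK Control replicate 3) and 43 to 45 in LSK Compound. Between Controls it gave 4 to 6 lower (4 without LSK Control replicate 3) and 6 to 11 higher (6 without LSK Control replicate 1, 7 without AML Control replicate 1 or 3). The Dox responses differed for 47 to 48 (lower) and 1 (higher), the Compound responses for 11 to 15, AML Dox lay below AML Compound for 44 to 45 and above for 3 to 4, and LSK Dox above LSK Compound for 32 to 33. Where LSK Compound was left with 1 array, that array was assumed to vary like those of the other groups.

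Deviations of same-numbered arrays from their group means correlated at -0.06 to 0.10, so the replicate numbers were not taken as pairs. With the replicate number as a block, 48 genes fell and 1 rose in AML Dox, 42 fell in AML Compound, 19 in LSK Dox and 46 in LSK Compound. In the same blocked fit 6 were lower and 10 higher between Controls, the Dox responses differed for 47 and 1, the Compound responses for 13, AML Dox against AML Compound for 45 and 3, and LSK Dox against LSK Compound for 35. Scaling moved the median of all genes by less than 0.1 log2 units.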
